A study of Mus musculus with 12 samples.

Results

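The miR-143 and miR-145a cluster was followed through 6 miRNA libraries of AKR-2B cells, a mouse fibroblast line. The cells were kept in soft agar, a gel that holds cells without attachment. The members are the 4 mature arms of the 2 hairpins, mmu-miR-143-3p, mmu-miR-143-5p, mmu-miR-145a-5p and mmu-miR-145a-3p, taken by name from a table of 1281 mature miRNAs, of which 664 had a read. Cells in soft agar had received 25 ng/mL TGFβ or vehicle and were collected at days 2, 4 and 8. Each treatment and day had 1 miRNA library and 1 mRNA library, 12 in all, so no within-day difference has a replicate check. The comparison of TGFβ with vehicle asks which RNAs differed with the growth factor in soft agar. The libraries hold no measure of growth, so its part in these differences was not tested. AKR-2B is a single immortal line, so every library shares its genetic background.

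The 2 hairpins are cut from 1 long transcript. In the RefSeq annotation of GRCm38.p6, Mir143 lies at chr18:61649196-61649258 and Mir145a at chr18:61647825-61647894, both on the minus strand, 1301 bases apart and both inside the long noncoding RNA gene Carmn (chr18:61645878-61665538). In the GENCODE annotation, Carmn ends upstream of both hairpins, at 61649625. The pair is known as a marker of smooth muscle and activated fibroblasts. Serum response factor and its coactivators drive its transcription, and it favours the contractile state of smooth muscle by repressing growth-associated transcription factors such as Klf4 and Elk1. In human vascular smooth muscle cells TGFβ is known to raise both miRNAs. Each hairpin gives a major arm that is loaded into the silencing complex, miR-143-3p and miR-145a-5p, and a passenger arm that is mostly degraded, miR-143-5p and miR-145a-3p.

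Library totals ran from 108716 reads (day 2, vehicle) to 1387785 (day 8, TGFβ), and 424 to 581 mature miRNAs were detected in each. Levels are given as CPM, reads scaled to library size with trimmed mean of M-values (TMM) factors, with exact Poisson 95% intervals. All intervals here cover the counting error of reads only, and the spread between cultures or library preparations is outside them. No molecular identifiers tell separate molecules from PCR copies, so the intervals may be too narrow for counts of molecules. The 8 marker miRNAs of mesenchyme, which include both major arms, had reads in all 6 libraries, summing to 110458 to 303664 CPM. The sum was higher in the TGFβ library at each day, but not every marker followed it. miR-21a-5p, another of the 8, gave 143585 of the 365624 marker reads with TGFβ at day 8 and 13696 of 50209 with vehicle. miR-143-3p was lower with TGFβ at each day. Leukocyte markers miR-150-5p and miR-223-3p had 0 to 2 reads, while the 3 nerve markers summed to 867 to 1380 CPM, with miR-124-3p at 0 throughout and the other two read in every library. The 7 epithelial markers summed to 985 CPM in the day 2 TGFβ library, with miR-205-5p at 0, against 211 CPM in the day 2 vehicle library and 15.4 to 51.7 CPM in the other 4 libraries. In bulk RNA, fewer cells that make a miRNA and less of it per cell cannot be told apart.

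The cluster made up a smaller part of the reads with TGFβ at every day. Its 4 arms together took 1.41% of the reads in the TGFβ library and 1.94% in the vehicle library at day 2. At day 4 the shares were 1.25% with TGFβ and 2.73% with vehicle, and at day 8 they were 1.73% with TGFβ and 3.00% with vehicle. These shares are of all miRNA reads, before any scaling, and they follow miR-143-3p, which held most of the cluster's reads.

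miR-143-3p was the abundant arm and was lower with TGFβ at days 4 and 8. It had 2410 reads (14210 CPM, 13648 to 14788) in the day 2 TGFβ library and 1887 reads (15286 CPM, 14604 to 15991) in the day 2 vehicle library. At day 4 it had 4889 reads (12684 CPM, 12330 to 13044) with TGFβ and 5767 reads (21314 CPM, 20768 to 21872) with vehicle. At day 8 it had 18712 reads (15541 CPM, 15319 to 15765) with TGFβ and 10690 reads (23518 CPM, 23074 to 23968) with vehicle. The 3 TGFβ libraries thus stayed within a narrow band, while the vehicle libraries of days 4 and 8 stood above it. The ratio of TGFβ to vehicle was 0.930 (0.875 to 0.988) at day 2, 0.595 (0.573 to 0.618) at day 4 and 0.661 (0.645 to 0.677) at day 8. In order of level, vehicle at day 8 came first, then vehicle at day 4, TGFβ at day 8, vehicle at day 2, TGFβ at day 2 and TGFβ at day 4. The intervals of TGFβ at day 8 and vehicle at day 2 overlapped, as did those of vehicle and TGFβ at day 2. By mean level over the 6 libraries miR-143-3p ranked 20th of all miRNAs with 17092 CPM, between miR-24-3p (17677 CPM) and miR-744-5p (14608 CPM).

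miR-145a-5p, the other major arm, behaved differently: it was lower with TGFβ at day 2 and stood highest at day 8 in both treatments. At day 2 it had 94 reads (554 CPM, 448 to 678) with TGFβ and 205 reads (1661 CPM, 1441 to 1904) with vehicle, 2.996-fold lower (ratio 0.334, 0.259 to 0.428). At day 4 it had 819 reads (2125 CPM, 1982 to 2275) with TGFβ and 500 reads (1848 CPM, 1689 to 2017) with vehicle. At day 8 it had 5059 reads (4202 CPM, 4087 to 4319) with TGFβ and 1631 reads (3588 CPM, 3416 to 3767) with vehicle. The ratios of 1.15 (1.03 to 1.29) at day 4 and 1.17 (1.11 to 1.24) at day 8 lay above 1 with TMM scaling but were 0.827 and 0.927 when scaled to total reads, so no direction can be given for those days. By total reads vehicle stood above TGFβ at day 4 (2154 against 1781 CPM) and at day 8 (3931 against 3645 CPM). With TMM scaling the order of level was TGFβ and vehicle at day 8, TGFβ and vehicle at day 4, then vehicle and TGFβ at day 2. The intervals of the 2 day 4 libraries overlapped, as did those of the day 4 and day 2 vehicle libraries, and the day 2 TGFβ library stood apart at the bottom. The same library held the most reads of epithelial miRNAs, among them miR-200b-3p with 77 reads with TGFβ against 1 with vehicle; their part in the low miR-145a-5p level was not tested.

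**Figure D1:**
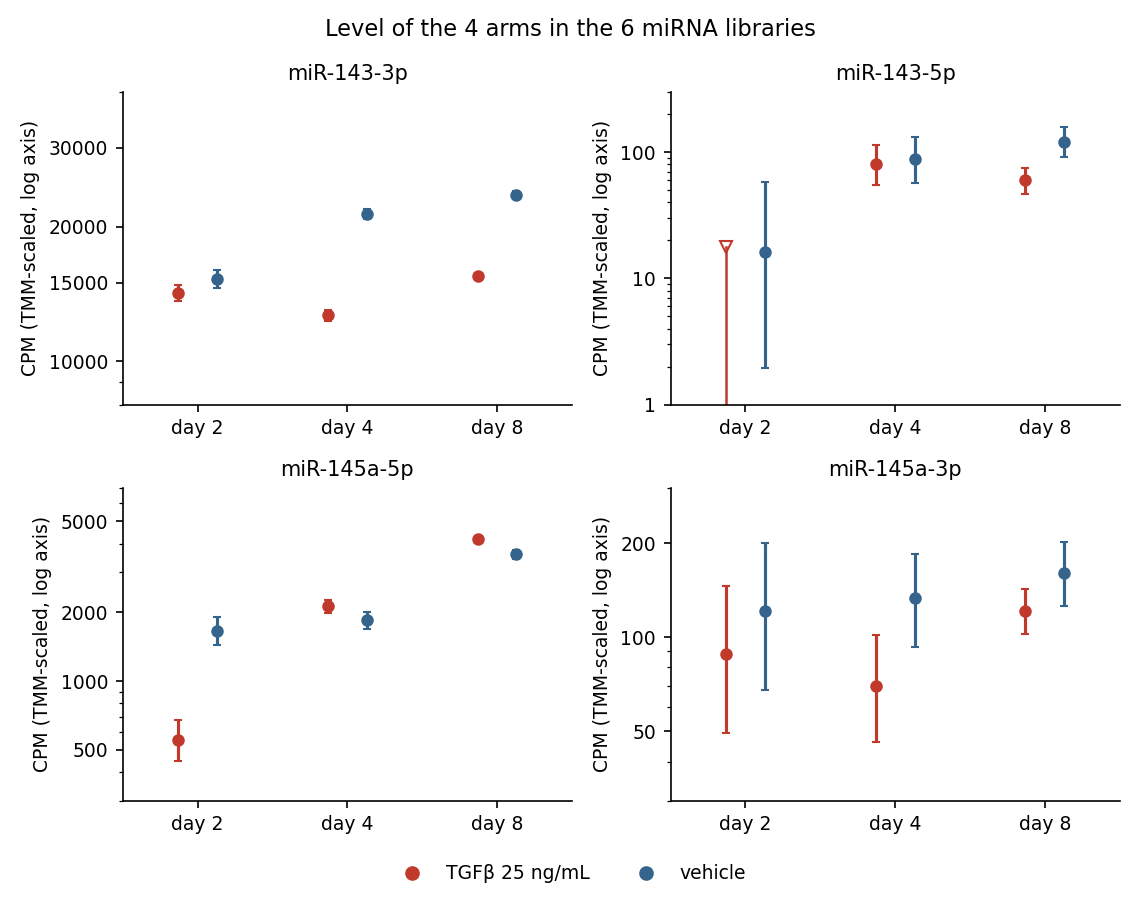
Level of each arm in the 6 libraries, as TMM-scaled CPM on a log axis whose range differs between panels, with TGFβ (red) left of vehicle (blue) at each day. Points are single libraries, bars are 95% counting intervals, and the open triangle marks the level that 3 counts would give where 0 reads were counted. miR-143-3p separates by treatment at days 4 and 8, while miR-145a-5p is highest at day 8.

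The passenger arms were read far less often. At day 2 miR-145a-3p had 15 reads (88.4 CPM, 49.5 to 146) with TGFβ and 15 reads (122 CPM, 68.0 to 200.4) with vehicle. At day 4 there were 27 reads (70.0 CPM, 46.2 to 102) with TGFβ and 36 (133 CPM, 93.2 to 184) with vehicle, and at day 8 there were 146 (121 CPM, 102 to 142.6) with TGFβ and 73 (161 CPM, 126 to 202) with vehicle. The TGFβ library was the lower of each pair, with ratios of 0.728 (0.332 to 1.60) at day 2, 0.526 (0.307 to 0.892) at day 4 and 0.755 (0.566 to 1.01) at day 8. The day 8 interval includes 1 with TMM scaling but excludes it with total counts (0.598, 0.449 to 0.803) and with DESeq2 size factors (0.731, 0.548 to 0.982). All neighbours in the order of its 6 levels had overlapping intervals.

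miR-143-5p was near the limit of detection at day 2, with 0 reads in the TGFβ library, which allows up to 17.7 CPM at 3 counts, and 2 reads (16.2 CPM) in the vehicle library. No fold is given for that day. At day 4 it had 31 reads (80.4 CPM, 54.6 to 114) with TGFβ and 24 reads (88.7 CPM, 56.8 to 132) with vehicle, a ratio of 0.907 (0.515 to 1.61). At day 8 it had 72 reads (59.8 CPM, 46.8 to 75.3) with TGFβ and 55 reads (121 CPM, 91.2 to 157) with vehicle, a ratio of 0.494 (0.343 to 0.715). All neighbours in the order of its levels had overlapping intervals.

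Set among all miRNAs, the cluster's changes with TGFβ were moderate. Changes were taken as differences of log2 CPM (prior count of 2), keeping a miRNA where its 2 libraries of the day averaged 10 CPM or more. By that filter 3 of the 4 arms were kept at day 2 and all 4 later. At least 2-fold lower were 1 of 3 arms at day 2, miR-145a-5p at -1.58, and 0 of 4 at days 4 and 8; no arm was 2-fold higher at any day. Of the 362 miRNAs kept at day 2, 14.1% were at least 2-fold lower and 11.9% higher. At day 4, 17.8% of 366 were lower and 21.6% higher, and at day 8, 21.6% of 361 were lower and 20.2% higher. The count of arms is thus close to this background. Scaling decides several of these calls. With total counts miR-143-3p (-1.22) and miR-145a-3p (-1.34) were past 2-fold lower at day 4 and miR-143-5p (-1.28) at day 8, while the miRNAs past 2-fold were 50 higher and 96 lower at day 4, and 54 higher and 101 lower at day 8. With DESeq2 size factors miR-145a-3p stood at -1.04 on day 4 and miR-143-5p at -1.01 on day 8, and a prior count of 0.5 put miR-143-5p at -1.003 on day 8. The arms kept had a median change of -0.44 on day 2, -0.44 on day 4 and -0.49 on day 8, beside -0.04, 0.17 and 0.01 over all miRNAs on these days. The change of miR-145a-5p at day 2 had 6.91% of miRNAs below it. Below miR-143-3p lay 46.7% on day 2, 22.1% on day 4 and 29.9% on day 8.

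**Figure D2:**
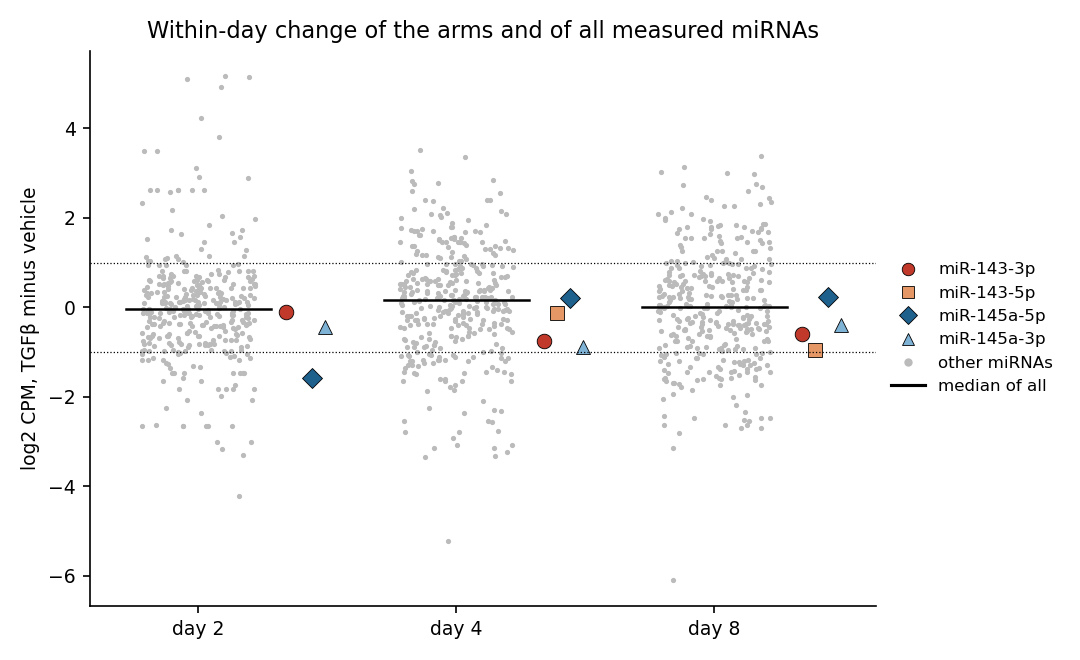
Difference of log2 CPM, TGFβ minus vehicle, at each day. Grey dots are all miRNAs that passed the filter, black bars their median, dotted lines mark 2-fold, and coloured symbols are the arms; miR-143-5p is not shown at day 2, where it did not pass. miR-145a-5p alone lies past the 2-fold line, at day 2, and miR-143-3p and miR-145a-3p lie below 0 at each day.

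No arm passed the test for an effect of TGFβ common to the 3 days. This test was edgeR's quasi-likelihood test over the 6 libraries with day as a factor and Benjamini-Hochberg adjustment over 309 miRNAs, of which 1.94% passed at 0.05; the days stand in for replicates, so a response that differs between days counts as error. The averaged log2 change of miR-143-3p was -0.48 ± 0.24 (SE; edgeR adjusted p = 0.227), with the TGFβ library lower at 3 of 3 days. Without day 2, over 4 libraries, it was -0.68 and passed (edgeR adjusted p = 0.0285), where 109 miRNAs passed in place of 6. That of miR-145a-5p was -0.35 ± 0.42 (edgeR adjusted p = 0.620), and 0.21 without day 2 (edgeR adjusted p = 0.362). Its TGFβ library was lower at 1 of 3 days with TMM scaling and at each day with total counts. The passenger arms stood at -0.59 ± 0.42 for miR-145a-3p (edgeR adjusted p = 0.376) and -0.78 ± 0.59 for miR-143-5p (adjusted p = 0.403).

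The members also differed in their course over time. miR-145a-5p was 7.58-fold (6.18 to 9.40) higher at day 8 than at day 2 with TGFβ and 2.16-fold (1.87 to 2.51) higher with vehicle. The step from day 2 to day 4 was 3.83-fold (3.09 to 4.80) with TGFβ and 1.11-fold (0.944 to 1.32) with vehicle, and that from day 4 to day 8 was 1.98-fold (1.84 to 2.13) with TGFβ and 1.94-fold (1.76 to 2.15) with vehicle. The 2 treatments thus differed in the first step and took nearly equal second steps. miR-143-3p at day 8 was 1.09 times (1.05 to 1.14) its day 2 level with TGFβ and 1.54 times (1.46 to 1.62) with vehicle.

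Averaged over treatment, day 8 against day 2 gave a log2 change of 1.92 ± 0.53 for miR-145a-5p and 3.59 ± 0.98 for miR-143-5p, both at an edgeR adjusted p of 0.0581, just outside the threshold that 6.8% of 309 miRNAs passed. Both passed with each of 4 other settings, each of which also called more miRNAs in all than the 21 of 309 of the main fit. These were total-count scaling (edgeR adjusted p = 0.0129 and 0.0216, 54 of 309 called) and DESeq2 size factors in edgeR (0.00688 and 0.0140, 58 of 309). The others were no filter on low counts (0.000541 and 0.00191, 62 of 664) and the DESeq2 test (0.00598 and 0.0434, 52 of 309). Neither arm passed without day 4 (0.0740 and 0.0897), where 13 of 283 were called. miR-143-3p (0.36 ± 0.30, edgeR adjusted p = 0.429) and miR-145a-3p (0.43 ± 0.52, adjusted p = 0.587) did not pass. Day 4 against day 2 gave 0 calls, 0% of 309 miRNAs in edgeR, with 26 at an unadjusted p under 0.05 and 2 calls in DESeq2. miR-143-5p stood at 3.61 ± 1.00 there (edgeR adjusted p = 0.439) and was among those 26. With no filter on low counts it passed (3.68, edgeR adjusted p = 0.0109), as 1 of 13 called among 664. The day 2 level of miR-143-5p rests on 2 reads in all, so these changes depend on that count.

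The ratio of the partners within a library depends on no scaling, and it turned round between day 2 and the later days. At day 2, miR-143-3p had 25.6 reads (20.9 to 31.9) for each read of miR-145a-5p with TGFβ and 9.20 (7.97 to 10.7) with vehicle. At day 4 it had 5.97 (5.54 to 6.44) with TGFβ and 11.5 (10.5 to 12.7) with vehicle, and at day 8 it had 3.70 (3.59 to 3.82) with TGFβ and 6.55 (6.22 to 6.91) with vehicle. The ratio with TGFβ was 2.79 times (2.15 to 3.62) that with vehicle at day 2, 0.518 times (0.459 to 0.583) at day 4 and 0.564 times (0.531 to 0.600) at day 8. Within TGFβ it fell at each step, over a 6.93-fold span that also holds the vehicle libraries. With 1 library each, whether this difference between days exceeds the spread between cultures was not tested.

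The passenger arm of miR-145a followed miR-143-3p more closely than its own major arm: over the 6 libraries its ratio to miR-143-3p spanned 1.44-fold and its ratio to miR-145a-5p spanned 5.53-fold. For each 1000 reads of miR-143-3p there were 6.22 reads of miR-145a-3p (3.48 to 10.3) with TGFβ and 7.95 (4.44 to 13.1) with vehicle at day 2. At day 4 there were 5.52 (3.64 to 8.05) with TGFβ and 6.24 (4.37 to 8.65) with vehicle, and at day 8 there were 7.80 (6.58 to 9.18) with TGFβ and 6.83 (5.35 to 8.59) with vehicle. The intervals of all 6 libraries overlapped. For miR-145a-5p the counts per 1000 reads of miR-143-3p ran from 39.0 with TGFβ at day 2 to 270 with TGFβ at day 8, and the intervals of these 2 libraries were far apart. This set of ratios was chosen after the values were seen, and the 15 reads of miR-145a-3p in each day 2 library leave wide limits.

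**Figure D3:**
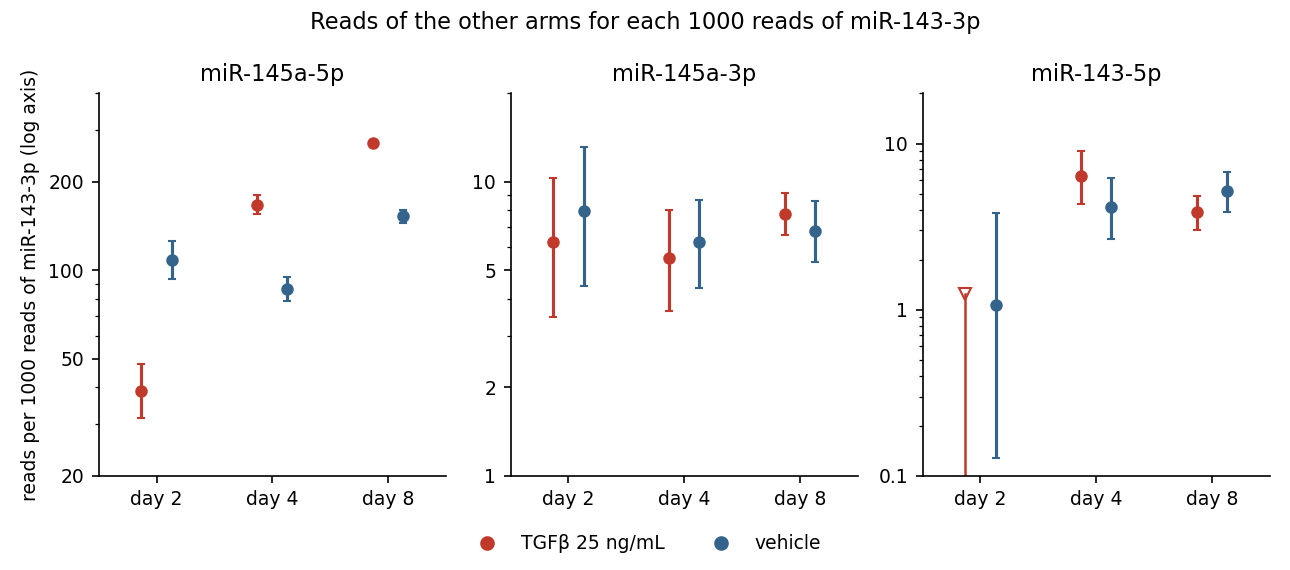
Reads of each other arm per 1000 reads of miR-143-3p in each library, on log axes whose ranges differ between panels, with TGFβ (red) left of vehicle (blue). Bars are exact 95% counting intervals and the open triangle is the value 3 counts would give where 0 reads were counted. miR-145a-5p spans 39.0 to 270, while miR-145a-3p stays between 5.52 and 7.95.

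As a share of both arms of its hairpin, miR-145a-3p therefore varied. It made up 13.8% of miR-145a reads (7.91 to 21.7, Clopper-Pearson) with TGFβ and 6.82% (3.87 to 11.0) with vehicle at day 2. The shares were 3.19% (2.11 to 4.61) with TGFβ and 6.72% (4.75 to 9.18) with vehicle at day 4, and 2.80% (2.37 to 3.29) with TGFβ and 4.28% (3.37 to 5.36) with vehicle at day 8. The 5p to 3p ratio with TGFβ was 0.459 times (0.200 to 1.06) that with vehicle at day 2, 2.18 times (1.27 to 3.79) at day 4 and 1.55 times (1.15 to 2.08) at day 8. Of all hairpins with at least 20 reads in both libraries of the day and both arms read, 36.2% of 69 changed their arm ratio at least 2-fold at day 2, 40.2% of 92 at day 4 and 36.7% of 109 at day 8, so changes of this size were common. Over the 6 libraries the arm ratio of miR-145a spanned 5.53-fold, the 6th widest of 30 hairpins with at least 10 reads of each arm in each library, whose median span was 3.13-fold.

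The miR-143 hairpin was far more one-sided. miR-143-5p made up 0.630% of its reads (0.428 to 0.893) with TGFβ and 0.414% (0.266 to 0.616) with vehicle at day 4, and 0.383% (0.300 to 0.482) with TGFβ and 0.512% (0.386 to 0.666) with vehicle at day 8. At day 2 it was 0 of 2410 reads with TGFβ, which allows a share of up to 0.124%, and 2 of 1889 reads, 0.106% (0.0128 to 0.382), with vehicle. The day 2 TGFβ share thus lay below the intervals of both libraries of days 4 and 8. The 5p to 3p ratio with TGFβ was 1.52 times (0.864 to 2.72) that with vehicle at day 4 and 0.748 times (0.519 to 1.08) at day 8, both intervals including 1.

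Other clustered miRNAs give the scale for the partner ratio. Counts are per mature miRNA, so reads from any copy of these miRNAs at another locus are included. Of 21 clustered pairs chosen for this comparison, 13 had at least 10 reads of each miRNA in each library, the pair of miR-143-3p and miR-145a-5p among them. Its log2 change of 1.48 at day 2 was the largest of the 13 in size, with the others between -1.26 and 1.22. At day 4 its change of -0.95 ranked 2nd after miR-214-3p over miR-199a-5p (-1.14), and at day 8 its change of -0.83 ranked 4th after miR-99b-5p over let-7e-5p (1.30), miR-99b-5p over miR-125a-5p (1.07) and miR-182-5p over miR-183-5p (0.93). Its 6.93-fold span over the 6 libraries was the widest of the 13, whose median was 2.79-fold. A change of sign between days was seen in 8 of the 13 pairs, so that alone was not particular to miR-143 and miR-145a.

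**Figure D4:**
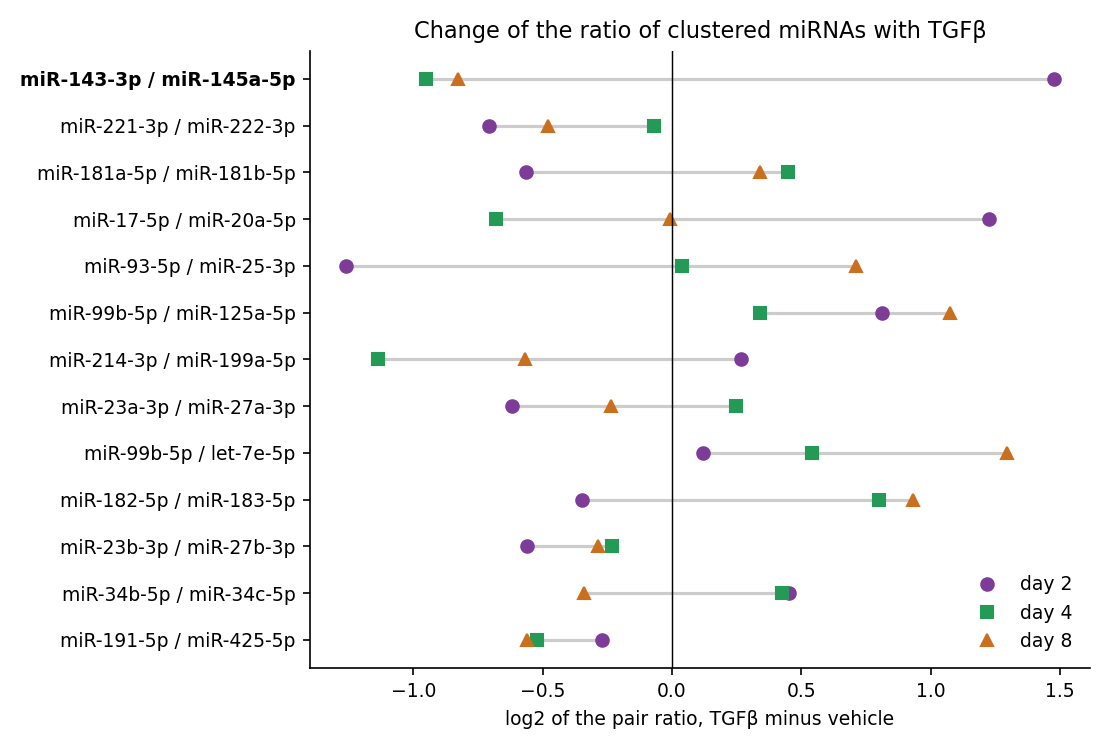
Change of the ratio of 2 clustered miRNAs, as log2 TGFβ minus vehicle, for the 13 pairs with at least 10 reads of each miRNA in each library, ordered by their span over the 6 libraries with the widest on top. Circles are day 2, squares day 4 and triangles day 8, each from 1 library per treatment. miR-143-3p over miR-145a-5p runs from -0.95 at day 4 to 1.48 at day 2.

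The miRNAs whose levels ran most like each major arm were also different sets, as the 2 arms themselves ran apart (Pearson r = 0.39). Each set was picked over the same 6 libraries, so sharing the high or low libraries of its arm follows largely from that choice. Among 251 miRNAs averaging 50 CPM or more, the 5 with the highest Pearson r of log2 CPM with miR-143-3p over the 6 libraries were miR-218-5p (0.99), miR-146b-5p (0.98), miR-466d-3p (0.95), miR-101a-3p (0.95) and miR-467c-5p (0.94). miR-218-5p, for one, had 1105 CPM with TGFβ and 3341 CPM with vehicle at day 4, and 1358 CPM with TGFβ and 3687 CPM with vehicle at day 8. All 5 stood highest in the vehicle libraries of days 4 and 8. Those nearest to miR-145a-5p were miR-425-3p (0.99), miR-23a-3p (0.99), miR-23b-3p (0.98), miR-30b-5p (0.97) and miR-27b-3p (0.97), all lowest in the day 2 TGFβ library, where miR-30b-5p had 3 reads. miR-23b-3p had 537 CPM with TGFβ and 1304 CPM with vehicle at day 2, and 3126 CPM with TGFβ and 3432 CPM with vehicle at day 8.

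Between the members, miR-143-3p had r = 0.89 with miR-145a-3p (15th of the 250 other miRNAs), 0.50 with miR-143-5p (57th) and 0.39 with its partner miR-145a-5p (68th). miR-145a-5p had r = 0.87 with miR-143-5p (31st) and 0.48 with miR-145a-3p (80th). The coefficients of miR-143-5p rest in part on its day 2 values near the floor, with 0 reads with TGFβ and 2 with vehicle. All of these coefficients describe 6 libraries that share days and treatments, and they carry no p-value.

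**Figure D5:**
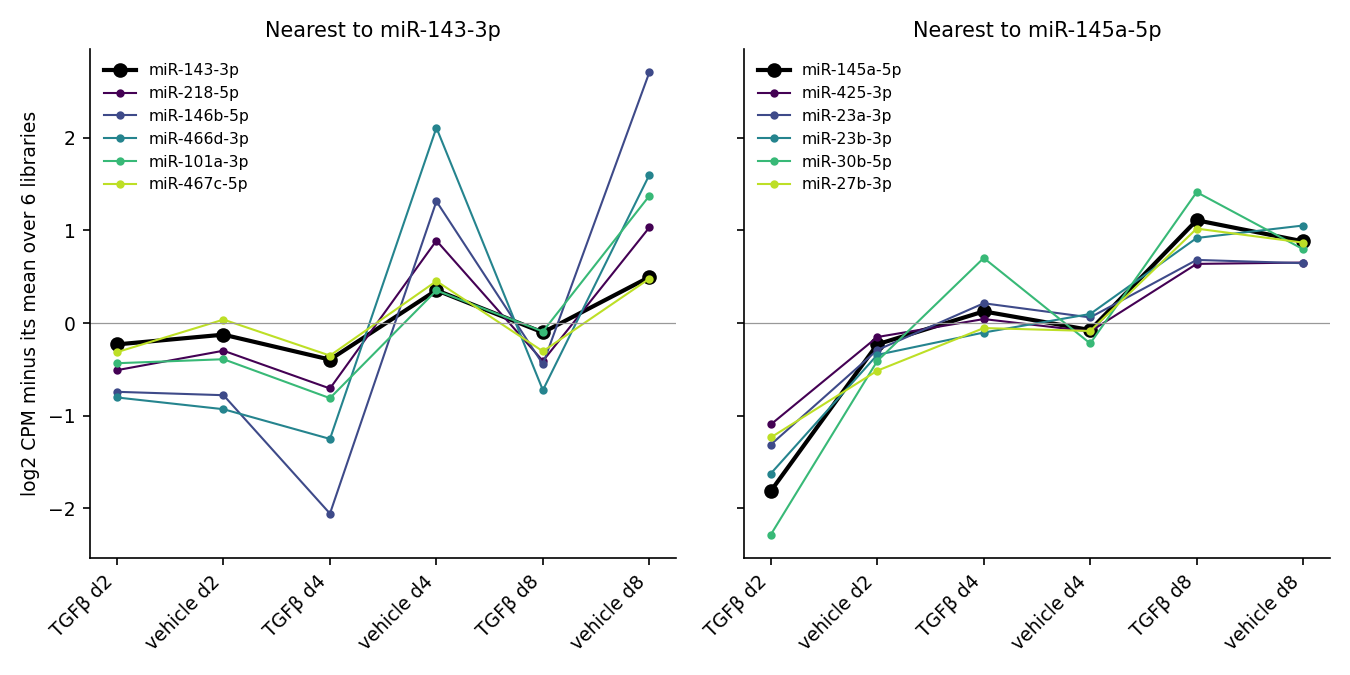
log2 CPM minus its mean over the 6 libraries for miR-143-3p (left, black) and miR-145a-5p (right, black) with the 5 miRNAs nearest to each in colour, TGFβ left of vehicle at each day. Lines join libraries to guide the eye. On the left all 6 profiles peak in the vehicle libraries of days 4 and 8, and on the right all 6 are lowest in the TGFβ library of day 2. The 5 miRNAs of each panel were picked for likeness over these same libraries.

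Other miRNAs studied in smooth muscle stood mostly above 0 where miR-143-3p stood below. Of 18 listed, which include the mesenchyme markers miR-21a-5p, miR-199a-5p and miR-214-3p, 14 were measured at day 2 and 12 at days 4 and 8. On day 2, 4 of them were at least 2-fold higher with TGFβ, on day 4 there were 5 and on day 8 there were 7, with 0 at least 2-fold lower on any day. Over all miRNAs 11.9%, 21.6% and 20.2% were at least 2-fold higher on these days, and 14.1%, 17.8% and 21.6% at least 2-fold lower. The list was chosen with earlier results of these data known. Of the 4 on day 2, miR-204-5p had 23 reads with TGFβ and 0 with vehicle, and miR-1a-3p had 6 with TGFβ and 1 with vehicle, in the pair whose TGFβ library held the most epithelial miRNA reads; the part of these in the counts was not tested. Their median log2 change over the 3 days was 0.23, 0.77 and 1.47, against -0.04, 0.17 and 0.01 over all miRNAs. One of 11 tested passed edgeR's test averaged over days, miR-21a-5p, a growth-associated miRNA (log2 change 1.91, adjusted p = 0.00169). miR-199a-5p had log2 changes of 0.18, 1.85 and 2.23 at days 2, 4 and 8 (edgeR adjusted p = 0.0860). miR-26a-5p stood below 0 at each day, at -0.14, -0.55 and -0.50 (adjusted p = 0.274), and miR-24-3p at 0.00, -0.85 and -0.29 (adjusted p = 0.366). Of the muscle miRNAs, miR-206-3p had log2 changes of 1.13, 2.39 and 2.75 at days 2, 4 and 8, with 156 reads with TGFβ and 7 with vehicle at day 8, and did not pass the averaged test (edgeR adjusted p = 0.0804). miR-1a-3p had 9 reads over all libraries, miR-133a-3p had 2, and miR-133a-5p, miR-133b-3p and the sequence relative miR-145b had 0.

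The host transcript was also listed in the mRNA data. The authors' deposited mRNA tables give 1 ratio per gene and day for 998 genes a day, 499 above 1 and 499 below, with no per-sample values. Their headers name no direction; the ratios are taken here as TGFβ over vehicle, an assumption, and all would invert otherwise. Of 30 textbook direct TGFβ target genes, listed after the tables had been seen, 7 were present in the authors' deposited tables, among them Pmepa1, an inhibitor of the pathway, at 5.41, 22.1 and 14.2 at days 2, 4 and 8. On day 2 there was 1 of them above 1, on day 4 there were 7 and on day 8 there were 4, with 0 below on any day. Because the list was made with the tables already seen, these counts do not test the direction. Smooth muscle contractile genes, some of which TGFβ is known to induce in other cells, mostly lay below 1 under the same reading. In the authors' deposited table of day 4, Carmn, listed under its older name E330013P06, had a ratio of 0.106, which is 9.43-fold lower. That ratio corresponds to as few as 11 and 108 reads with 0.5 added to each, with no scaling for depth. Ratios of other genes, such as Acta2 at day 2 (as few as 89 and 1597 reads), have the same form. The mRNA ratios given here may thus include differences in depth between the 2 libraries of a day. Carmn is not in the tables of days 2 and 8, which does not show it unchanged there. For the arms at day 4, the TMM-scaled ratio of TGFβ to vehicle was 0.595 for miR-143-3p and 0.526 for miR-145a-3p. It was 0.907 (0.515 to 1.61) for miR-143-5p and 1.15 (1.03 to 1.29) for miR-145a-5p. With total counts miR-145a-5p stood at 0.827 (0.739 to 0.926), so no direction can be given for it. These ratios are scaled for depth, unlike that of Carmn, so their sizes are not directly comparable.

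Among 22 smooth muscle contractile genes, 6 were listed in the authors' deposited tables. At day 2 there were 0 above 1 and 4 below, at day 4 there were 0 above and 5 below, and by day 8 the split was 1 above and 5 below. Synpo2, an actin-bundling protein of smooth and striated muscle (chr3:123076519-123236168), was lower in the authors' deposited tables by 15.8-fold at day 2, 13.2-fold at day 4 and 16.9-fold at day 8. In the authors' deposited tables Acta2, the smooth muscle actin gene, was lower by 17.8-fold at day 2, 12.6-fold at day 4 and 16.8-fold at day 8, and Mylk, Myl9 and Actg2 were below 1 wherever listed. Des was above 1 at day 8, with a ratio of 7 in the authors' deposited table that corresponds to as few as 3 reads against 0.

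Of 20 genes known to act upstream of the cluster, 2 were listed, both of the Notch pathway and both at day 2: the ligand gene Jag1 (chr2:137081451-137116520) at 5.63 and the receptor gene Notch3 (chr17:32120820-32166896) 8.85-fold lower in the authors' deposited table. Serum response factor, myocardin, the SMADs and both TGFβ receptors were not among the listed genes. Of 35 reported targets of miR-143 or miR-145, 3 were listed, all above 1. The authors' deposited tables hold 499 genes above 1 among 998 each day, and the targets were not tested as a set. Hexokinase gene Hk2, a target of miR-143, stood at 7.24 and 5.45 at days 4 and 8, and the transcription factor gene Sox9 (chr11:112782210-112787757), a target of miR-145, at 14.0 and 5.59 in the authors' deposited tables. The day 4 ratio of Hk2 corresponds to as few as 61 reads against 8. The day 2 ratio of Cd40 was 3 in the authors' deposited table, which corresponds to as few as 1 read against 0. None of these ratios has a replicate.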

How the data were processed

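The 6 miRNA libraries of AKR-2B cells in soft agar were 1 per treatment and day. The authors deposited raw counts (whole reads per mature miRNA), a second table with RPM values per pair of mature miRNA and precursor, and, per day, a ratio of the 2 mRNA libraries for 998 genes. Per the submitters' processing notes, edgeR 3.9 and build mm10 were used, with no role given; which aligner and counter were run is not given in the sources used here. RPM values served as an alternative only, and a common scaling leaves within-library ratios unchanged.

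Counts were scaled with TMM factors (0.838 to 1.17) and tested in edgeR 4.0.16 (limma 3.58.1, R 4.3.3) in a model of treatment and day on miRNAs kept by filterByExpr, leaving 2 residual degrees of freedom; SEs are those implied by the F statistic. Ratios carry exact conditional 95% intervals (scipy 1.17.1). A count of 0 was set to 3 counts as a bound. Nothing says that libraries came from separate cultures.

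Members, gene lists, clustered pairs and tests were chosen with earlier results of these data known. Named genes are the members, the 5 miRNAs nearest to each major arm, the pairs and the listed genes. Alternatives were total-count and DESeq2 scaling, no filter, DESeq2 1.42.0, other prior counts and minima, and leaving out a day.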

Additional observations from a re-analysis of the deposited data

Results flagged for a closer look

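The change of the miR-143-3p to miR-145a-5p ratio with TGFβ went opposite ways at different days: it was 2.79 at day 2, against 0.518 at day 4 and 0.564 at day 8 (TGFβ ratio over vehicle ratio). The difference between the days was not tested against replicates, because each treatment and day had 1 library. The day 2 value rests on 94 reads of miR-145a-5p with TGFβ and 205 with vehicle. The day 2 TGFβ library is also the one with the most epithelial miRNA reads, 167 against 26 with vehicle at that day, and the part of these in the ratio was not tested.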

How the results depend on the processing

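No analysis paired by replicate was possible because each treatment and day had 1 miRNA library and the labels number no replicates. The averaged test is paired by day, with day as a factor. Leaving out a day was the nearest check: miR-143-3p then had an averaged change of -0.68 and passed the test without day 2, while miR-145a-5p turned to 0.21. The miRNAs called for TGFβ numbered 109 without day 2, 2 without day 4 and 3 without day 8, against 6 with all days, and those for day 8 against day 2 numbered 13 without day 4, against 21. Total counts gave 58 and 54 for these contrasts, DESeq2 size factors 58 and 58, no filter 46 and 62, and the DESeq2 test 35 and 52. For day 4 against day 2, DESeq2 size factors and the DESeq2 test gave 2 each and no filter 13, against 0. For miR-145a-5p at day 8 against day 2 the log2 change that passed was 1.85 with total counts, 1.78 with DESeq2 size factors, 2.12 with no filter and 1.78 in DESeq2. With total counts, which shift the median of all miRNAs by -0.22, -0.48 and -0.33 at days 2, 4 and 8, miR-143-3p stood at -0.37, -1.22 and -0.93, and miR-145a-5p at -0.27 and -0.11 at days 4 and 8. The RPM table gave the same values to 2 decimals. DESeq2 size factors gave -0.92 and -0.64 for miR-143-3p at days 4 and 8 and 0.032 for miR-145a-5p at day 4. The number of miRNAs changed 2-fold was 212 at day 2 with no minimum CPM and 42, 84 and 99 at days 2, 4 and 8 with a minimum of 50 CPM, against 94, 144 and 151. Summing both arms or using RPM left the partner ratio within its counting interval. Of the 5 miRNAs nearest to miR-143-3p, 3 remained with total counts and 3 with Spearman's rho; for miR-145a-5p 3 remained with Spearman's rho. Depth limits the passenger arms most, with 0 to 15 reads in each day 2 library.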
